A study of Homo sapiens with 18 samples.

Results

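The genes described here are the protein-coding genes on chromosomes 1 to 22 that carried trimethylated lysine 4 of histone H3 (H3K4me3), acetylated lysine 27 of the same histone (H3K27ac), or both, in MDA-MB-231, a human cell line derived from triple-negative breast cancer. A gene was given a mark when at least 1 bp of a deposited ChIP-seq peak lay within 1 kb of either end of its RefSeq record. Of 19126 genes, 13709 had at least 1 of the marks: 1388 had H3K4me3 only, 295 had H3K27ac only and 12026 had both, while 5417 had neither. H3K4me3 was profiled in parental MDA-MB-231 cells, and so were the comparison targets H3K27me3, H2AK119ub, MYC and KDM2B. H3K27ac was profiled in MDA-MB-231 cells that carried an empty vector (EV), so mark and cell stock cannot be told apart in any difference between the lists. Each target had 2 libraries but 1 peak list, which does not resolve them, so values carry no replicate error and no test between libraries could be made. The intervals given are 95% Wilson intervals of shares, or Newcombe intervals of differences, and cover counting error only. Neighbouring genes share peaks and are not independent. The starting material stated for library construction was 50 ng of DNA for H3K4me3, H3K27me3 and H2AK119ub, 5 ng for KDM2B and 1 ng for MYC, and none is stated for H3K27ac.

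H3K4me3 is laid down mainly around transcription start sites, by methyltransferases that are drawn to unmethylated CpG islands and to initiating RNA polymerase II. H3K27ac is written by the acetyltransferases p300 and CBP at active promoters and enhancers. The same lysine can instead be trimethylated by the Polycomb complex PRC2, and PRC1 ubiquitinates H2AK119. A promoter with both H3K4me3 and H3K27me3 is called bivalent and is typical of developmental genes that are silent or weakly transcribed. MYC is a transcription factor that binds promoters widely in growing cells, and KDM2B is a demethylase of histones that recognises unmethylated CpGs and is part of a PRC1 complex.

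The promoter sequences of 8 genes are printed as examples and do not span the CpG content of their classes. They were picked by fold among genes with a promoter entry whose strongest peak covered the annotated start, with 1 gene per peak. SPMIP3 and KRTAP4-6 thus ranked only 12 and 19 by H3K27ac fold among genes whose peak was clear of H3K4me3. Each is the RefSeq entry of 300 bases (250 before and 50 after the annotated start, build GRCh38.p14), written 5′ to 3′ on the gene's strand, with every CpG in capitals. KIAA0319, SPATA18 and C11orf97 had H3K4me3 only. SPMIP3, KRTAP4-6 and AGXT2 had H3K27ac only. PASK had the highest H3K4me3 fold and EEF1A1 the highest H3K27ac fold of the genes with both marks. The members of the single-mark classes were picked among genes whose peak did not touch the other mark anywhere.
KIAA0319, chr6:24646142-24646441, minus strand: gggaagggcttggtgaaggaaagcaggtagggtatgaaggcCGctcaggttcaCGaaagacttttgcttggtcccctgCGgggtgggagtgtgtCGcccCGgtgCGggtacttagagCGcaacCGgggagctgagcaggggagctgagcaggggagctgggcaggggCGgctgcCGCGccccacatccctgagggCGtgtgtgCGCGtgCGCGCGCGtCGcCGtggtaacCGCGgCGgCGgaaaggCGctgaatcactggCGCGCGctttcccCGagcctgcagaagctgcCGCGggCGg
SPATA18, chr4:52051054-52051353, plus strand: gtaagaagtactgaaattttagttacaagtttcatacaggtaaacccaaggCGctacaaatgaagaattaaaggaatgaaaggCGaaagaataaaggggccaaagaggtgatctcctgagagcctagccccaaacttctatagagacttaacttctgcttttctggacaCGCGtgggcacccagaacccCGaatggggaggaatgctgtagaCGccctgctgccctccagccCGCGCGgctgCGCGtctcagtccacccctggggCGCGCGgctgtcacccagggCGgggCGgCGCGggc
C11orf97, chr11:94512211-94512510, plus strand: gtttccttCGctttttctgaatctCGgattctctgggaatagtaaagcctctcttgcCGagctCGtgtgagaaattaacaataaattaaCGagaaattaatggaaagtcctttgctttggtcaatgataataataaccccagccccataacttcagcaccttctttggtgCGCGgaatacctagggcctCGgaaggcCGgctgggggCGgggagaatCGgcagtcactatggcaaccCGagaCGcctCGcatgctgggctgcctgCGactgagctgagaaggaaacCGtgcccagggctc
SPMIP3, chr1:244352385-244352684, plus strand: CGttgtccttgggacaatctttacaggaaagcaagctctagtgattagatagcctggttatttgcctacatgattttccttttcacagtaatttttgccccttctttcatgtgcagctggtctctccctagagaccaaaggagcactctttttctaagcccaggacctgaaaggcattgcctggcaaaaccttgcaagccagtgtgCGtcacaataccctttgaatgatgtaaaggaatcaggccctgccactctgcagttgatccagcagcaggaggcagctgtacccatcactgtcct
KRTAP4-6, chr17:41140495-41140794, minus strand: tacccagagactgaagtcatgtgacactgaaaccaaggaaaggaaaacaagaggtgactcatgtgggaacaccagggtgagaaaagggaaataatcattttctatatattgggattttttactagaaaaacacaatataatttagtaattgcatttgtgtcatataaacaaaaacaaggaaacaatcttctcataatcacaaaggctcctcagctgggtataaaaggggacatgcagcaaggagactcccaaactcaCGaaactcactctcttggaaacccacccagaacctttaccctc
AGXT2, chr5:35047900-35048199, minus strand: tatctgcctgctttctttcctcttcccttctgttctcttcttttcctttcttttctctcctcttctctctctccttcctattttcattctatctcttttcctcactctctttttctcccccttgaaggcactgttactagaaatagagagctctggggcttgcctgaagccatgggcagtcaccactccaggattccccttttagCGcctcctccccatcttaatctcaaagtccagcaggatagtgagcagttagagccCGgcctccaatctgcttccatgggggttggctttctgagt
PASK, chr2:241150173-241150472, minus strand: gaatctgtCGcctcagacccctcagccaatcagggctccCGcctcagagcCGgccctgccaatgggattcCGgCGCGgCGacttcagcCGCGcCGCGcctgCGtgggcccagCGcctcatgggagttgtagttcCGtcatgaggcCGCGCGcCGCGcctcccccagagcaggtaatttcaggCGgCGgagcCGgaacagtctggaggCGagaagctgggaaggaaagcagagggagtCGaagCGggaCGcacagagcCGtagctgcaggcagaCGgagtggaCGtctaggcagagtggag
EEF1A1, chr6:73520983-73521282, minus strand: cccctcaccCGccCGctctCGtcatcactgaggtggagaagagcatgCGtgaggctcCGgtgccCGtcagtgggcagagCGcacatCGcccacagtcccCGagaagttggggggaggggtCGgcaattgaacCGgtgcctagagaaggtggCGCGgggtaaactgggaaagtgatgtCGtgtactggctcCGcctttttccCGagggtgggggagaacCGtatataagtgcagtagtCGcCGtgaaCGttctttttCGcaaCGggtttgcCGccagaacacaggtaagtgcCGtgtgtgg
The entries of KIAA0319, SPATA18 and C11orf97 hold 32, 18 and 16 CpGs. Those of SPMIP3, KRTAP4-6 and AGXT2 hold 2, 1 and 2, and those of PASK and EEF1A1 hold 29 and 24. The class medians were 16 with H3K4me3 only (quartiles 7 and 29), 5 with H3K27ac only (2 and 16) and 26 with both marks (19 and 34). The examples thus set the single-mark classes further apart than their medians do. KRTAP4-6, which encodes a keratin-associated protein of hair, has the letters tataaa within 20 to 40 bases before its start, and the other 7 entries do not have them there.

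The marks lay at the same genes with few exceptions. H3K4me3 was at 13414 genes, or 70.1% of those tested (69.5 to 70.8), and H3K27ac at 12321, or 64.4% (63.7 to 65.1). The classes made up 7.26% of genes for H3K4me3 only, 1.54% for H3K27ac only, 62.9% for both marks and 28.3% for neither. Of the genes with H3K4me3, 89.7% (89.1 to 90.2) also had H3K27ac and 10.3% did not. Of the genes with H3K27ac, 97.6% (97.3 to 97.9) also had H3K4me3, and among the genes without H3K4me3 only 5.16% (4.62 to 5.77) had H3K27ac. The size of the single-mark classes depended on the rule of overlap. With the summit of a peak inside the window, H3K27ac only grew to 1101 genes, and with only the start end of each record counted it shrank to 151. With at least 50% of the peak inside the window it grew to 6006 genes, and the H3K4me3 peaks of genes with both marks had a median width of 6396 bp, more than a window. With the 15000 peaks of highest fold in each list, the counts were 3215 for H3K4me3 only and 179 for H3K27ac only.

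At the limit of 1 kb the classes were set by small distances. The H3K4me3 peaks nearest to the limit lay 999 bp from IL20RB, which encodes a cytokine receptor chain, 994 bp from GOLGA6B, 992 bp from GLT1D1, 991 bp from DLL1, a Notch ligand, and 989 bp from NOVA2. Just outside it lay those of LCN8 at 1003 bp, MYL10 at 1008 bp, TREH at 1010 bp, LHX1 at 1011 bp and SV2A at 1014 bp. For H3K27ac the nearest inside were DDX60 at 1000 bp, ABR at 998 bp, CCDC42 at 995 bp, FIBCD1 at 992 bp and IL12B at 988 bp. The nearest outside were LOC124903217 at 1001 bp, FRMD8 at 1005 bp, the receptor tyrosine kinase gene RET at 1007 bp, BHMT at 1009 bp and KCNJ16 at 1011 bp. Few genes sat in this zone: 41 had their nearest H3K4me3 peak between 900 and 1000 bp away and 40 over 1000 and up to 1100 bp, and for H3K27ac the counts were 51 and 45.

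Where both marks were present they lay together. Of the 12026 genes with both, 11996 (99.8%, 99.6 to 99.8) had them at the same end of the record and 30 only at opposite ends. The strongest peaks of the marks overlapped at 93.9% of these genes (93.4 to 94.3), and their summits were a median of 74 bp apart (quartiles 12 and 437 bp). The H3K4me3 peak was the wider one, by a median ratio of 1.99 (quartiles 1.43 and 3.11) over the H3K27ac peak. The highest H3K4me3 folds of genes with both marks were 83.4 at the peak shared by PASK, which encodes a metabolic kinase, and PPP1R7, a regulator of protein phosphatase 1, with an H3K27ac fold of 24.3 there. GMNC followed at 83.3, the scaffold gene IQGAP1 at 81.7, RNASEH1 at 81.5 and ZNF672 at 80.8. Next were the ribosomal protein gene RPL6 at 80.1, PRPSAP2 and IGF2BP2 both at 79.9, and KCNH6 at 79.6. The peaks of RPL6 and KCNH6 lay at the far end of the record, and that of KCNH6 was shared with DCAF7. PRPSAP2 shows that a high rank for H3K4me3 did not bring one for H3K27ac, for which its fold was 6.28.

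The highest H3K27ac fold was 145.1 at EEF1A1, the translation elongation factor, whose H3K4me3 fold was 56.2. UQCC1, an assembly factor of respiratory complex III, had an H3K27ac fold of 132.4. That peak lay at the far end of UQCC1, while its strongest H3K4me3 peak lay at the start end. The peak of ANAPC13 and CEP63 had an H3K27ac fold of 122.6 and that of ZC3H4 one of 121.6. A single H3K27ac peak of fold 120.4 covered the ends of CTSW, FIBP, CCDC85B, C11orf68 and FOSL1, the last an AP-1 factor. Such sharing was common: the strongest H3K4me3 peak also reached an end of another protein-coding gene in 25.8% of genes with H3K4me3 only and in 41.5% of genes with both marks.

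Genes with 1 mark had weaker and narrower peaks of it than genes with both. Fold here is the authors' enrichment at the summit, which ranks peaks within a list only. The presence of peaks chose the classes, so these values are a description. The H3K4me3 fold had a median of 10.8 (quartiles 3.29 and 25.2) in genes with H3K4me3 only and of 44.7 (37.4 and 51.4) in genes with both marks, and the median widths were 2293 bp and 6396 bp. For H3K27ac the median fold was 3.75 (2.38 and 10.5) in genes with H3K27ac only and 25.7 (14.3 and 40.9) in genes with both marks, with median widths of 1023 bp and 3173.5 bp. The ranges overlapped over nearly their whole span, from 1.62 to 76.4 for H3K4me3 without H3K27ac and from 1.75 to 83.4 with it.

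H3K27ac accompanied H3K4me3 almost everywhere except at its weakest peaks. When genes with H3K4me3 were ranked by fold into 10 equal groups, H3K27ac was present at 38.2% of the lowest (35.7 to 40.9), 76.7% of the second, 93.1% of the third and 97.0% of the fourth, and at 98.1% to 99.2% of the other 6. The lowest group held 829 of the 1388 genes with H3K4me3 only and ended at a fold of 14.9. Ranked by H3K27ac fold, the lowest group had H3K4me3 at 84.7% of genes (82.6 to 86.6), the second at 97.1% and the rest at 98.3% to 99.8%. H3K27me3 also differed between the classes within the groups by H3K4me3 fold. Fold still varied inside these groups, from 1.62 to 14.9 in the lowest and from 14.9 to 30.5 in the second. In the lowest group H3K27me3 was at 66.2% of genes without H3K27ac (62.9 to 69.4) and at 29.0% of genes with H3K27ac (25.3 to 33.1). In the second group the shares were 65.7% and 18.7%, and in the third 56.5% and 12.3%. From the fifth group upwards H3K4me3 only held 11 to 25 genes per group and the intervals were wide.

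**Figure D1:**
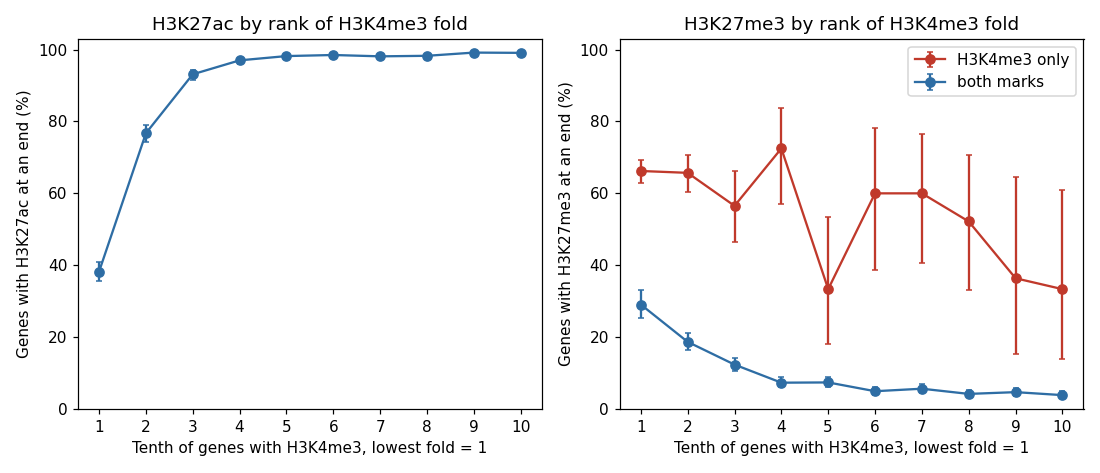
Genes with H3K4me3 in 10 equal groups by the fold of their strongest H3K4me3 peak (x axis, lowest first). Left, share of genes with H3K27ac at an end; right, share with H3K27me3 among genes with H3K4me3 only (red) and genes with both marks (blue), as percent, bars being 95% Wilson intervals. H3K27ac goes up to 97.0% by the fourth group, and the red points lie above the blue ones in every group.

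The other targets set the classes apart on measures that the choice of genes did not use. Over all genes, H3K27me3 was at an end of 27.1%, H2AK119ub of 46.6%, MYC of 65% and KDM2B of 48.3%. H3K27me3 was at 64.1% of genes with H3K4me3 only (61.6 to 66.6), 32.5% with H3K27ac only (27.4 to 38.1), 8.27% with both marks (7.79 to 8.77) and 59.2% with neither (57.9 to 60.5). H2AK119ub was at 82.6% of genes with H3K4me3 only, 49.5% with H3K27ac only, 38.7% with both marks and 54.7% with neither. Genes with H3K4me3 only thus carried both Polycomb marks more often than genes with both H3K4me3 and H3K27ac, by 55.9 percentage points for H3K27me3 (53.2 to 58.4) and by 44.0 points for H2AK119ub (41.7 to 46.1). Against genes with neither mark, the difference was 27.9 points for H2AK119ub (25.5 to 30.2) and 4.96 points for H3K27me3 (2.08 to 7.76), and both depended on the rule of overlap. For H3K27me3 the shares with H3K4me3 only and with neither mark were 55.9% and 55.8% for windows of 500 bp, 50.1% and 52.0% at the start end, 53.8% and 54.3% at any RefSeq start site, 42.5% and 46.0% by summits, and 26.6% and 57.7% with the 15000 peaks of highest fold. For H2AK119ub they were 61.2% and 58.3% with those 15000 peaks. MYC and KDM2B went the other way. MYC was at 45.2% of genes with H3K4me3 only (42.6 to 47.9), 16.3% with H3K27ac only (12.5 to 20.9), 96.6% with both (96.3 to 96.9) and 2.60% with neither (2.21 to 3.06). KDM2B was at 22.3% of genes with H3K4me3 only, 0.339% with H3K27ac only, 73.9% with both and 0.812% with neither. These shares are not at equal H3K4me3 fold. In the lowest of the 10 groups by that fold, KDM2B was at 9.05% without H3K27ac (7.28 to 11.2) and 7.80% with it (5.78 to 10.4). In the second group it was at 51.6% (46.1 to 57.1) and 44.5% (41.5 to 47.6), and in the third at 46.7% and 61.1%. For MYC the shares were 33.8% and 59.6% in the lowest group and 72.8% and 93.1% in the second. The only gene with KDM2B and H3K27ac but no H3K4me3 was LOC124905352, with a KDM2B fold of 2.39.

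The differences between genes with H3K4me3 only and genes with both marks kept their sign under stricter rules and shrank under some of them. Those for H2AK119ub and MYC grew to 47.1 and −54.1 points with windows of 500 bp. At the start end alone they grew to 54.8 and −53.3 points. Rules on windows, ends and overlap were applied to all targets. With the 15000 peaks of highest fold, genes with H3K4me3 only exceeded genes with both marks by 22.5 points for H3K27me3 and 29.0 points for H2AK119ub, and the differences for MYC and KDM2B were −10.2 and −19.1 points in place of −51.4 and −51.7. With summits inside the window the H3K27me3 difference was 37.1 points. With at least 50% of a peak inside it, the differences were 25.0, 29.1, −33.9 and −20.2 points for H3K27me3, H2AK119ub, MYC and KDM2B. The shares of genes with H3K27ac only moved more, as the class itself grew. By summits it had KDM2B at 47.2%, MYC at 63.9% and H3K27me3 at 11.3%, and by 50% of the peak it had KDM2B at 72.2%, MYC at 91.4% and H3K27me3 at 6.06%.

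**Figure D2:**
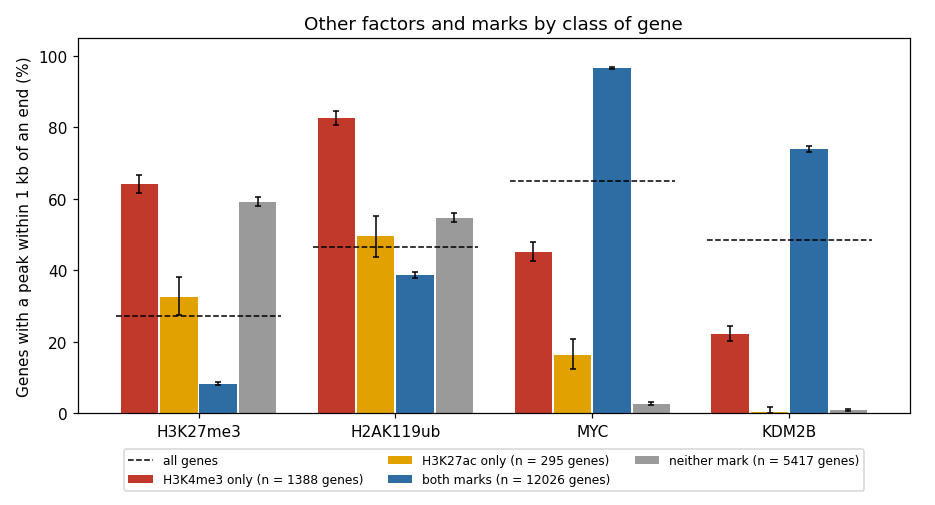
Share of genes (y axis, percent) with a peak of each of 4 other targets within 1 kb of an end, for genes with H3K4me3 only (red), H3K27ac only (yellow), both marks (blue) and neither mark (grey). Bars are shares, whiskers 95% Wilson intervals and dashed lines the share over all genes. The red bars are the highest for H3K27me3 and H2AK119ub, at 64.1% and 82.6%, and the blue ones for MYC and KDM2B, at 96.6% and 73.9%.

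Most genes with H3K4me3 only had both Polycomb marks within 1 kb of an end, which did not hold under every rule. H3K27me3 and H2AK119ub were together at 840 of the 1388 (60.5%, 57.9 to 63.1), H2AK119ub without H3K27me3 at 307, H3K27me3 alone at 50 and neither at 191. The share with H3K27me3, above which the share with both Polycomb marks cannot lie, was 26.6% with the 15000 peaks, 35.2% by 50% of the peak and 42.5% by summits. Read the other way, H3K27ac was found at 97.4% of H3K4me3 genes with no Polycomb mark, 92.6% of those with H2AK119ub alone, 78.4% of those with H3K27me3 alone and 49.2% of those with both (46.8 to 51.6). H3K27me3 overlapped the strongest H3K4me3 peak itself, and not only the window, at 52.8% of genes with H3K4me3 only and at 7.73% of genes with both marks. For the H3K27ac peak the window and the peak differed more. In genes with H3K27ac only, 32.5% had H3K27me3 within 1 kb of an end, but 3.05% (1.61 to 5.70) had it on the strongest H3K27ac peak. In genes with both marks the shares were 8.27% and 1.20%. The widths were unlike, with medians of 1023 bp for H3K27ac in genes with H3K27ac only and 2293 bp for H3K4me3 in genes with H3K4me3 only. In a population of cells, marks on the same chromatin and marks in different cells or alleles cannot be told apart.

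Around start sites the marks formed different shapes. For the 15101 genes with a RefSeq promoter entry, which gives the strand and the start (genes of chromosome 8 were not analysed here for strand, start or promoter sequence), H3K4me3 peaks covered the start in 60.7% of genes with H3K4me3 only and in 94.6% of genes with both marks. H3K27ac covered it in 32.6% of genes with H3K27ac only and in 80.7% of genes with both marks. In genes with both marks the H3K27ac coverage was 79.2% at 400 bp upstream, 70.5% at 100 bp upstream and 91.2% at 200 bp downstream, which left a dip just before the start. KDM2B lay mainly downstream of the start in these genes, with 52.6% covered at 200 bp downstream. Upstream its coverage was 19.8% at 500 bp, 23.3% at 300 bp and 20.3% at 100 bp, a smaller dip. H2AK119ub covered 39.0% of the starts of genes with H3K4me3 only and 48.5% of the positions 500 bp downstream, while in genes with both marks it covered 4.34% and 10.1%. H3K27me3 was flat across the start of genes with H3K4me3 only: 28.4% were covered at 500 bp upstream, 27% at the start and 30.2% at 500 bp downstream.

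**Figure D3:**
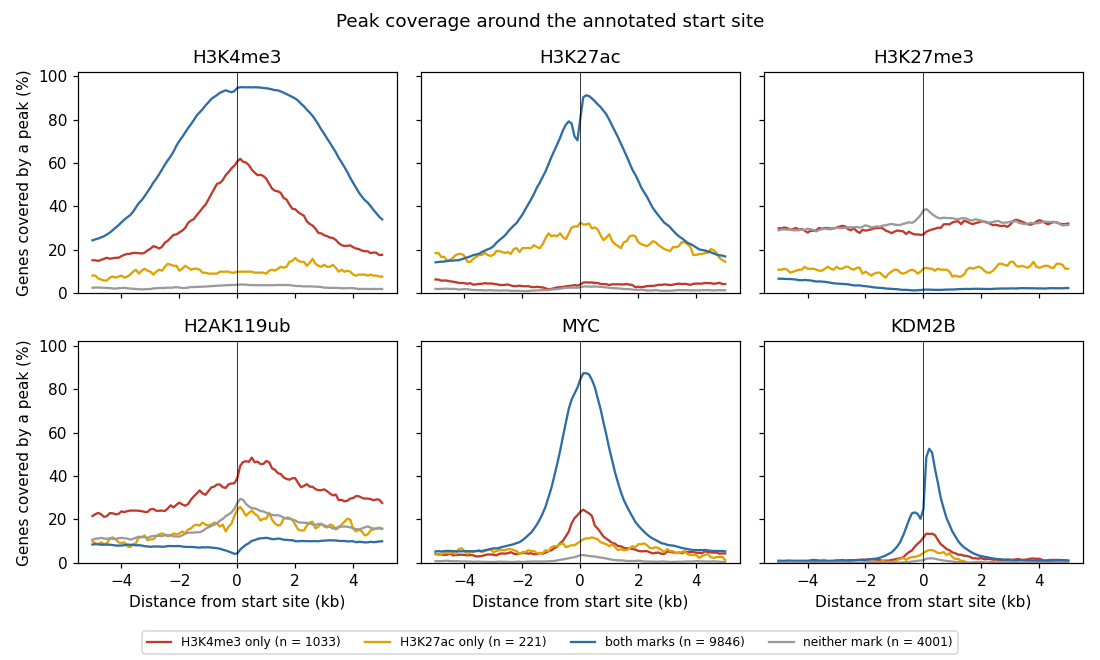
Share of genes (y axis, percent) covered by a peak at each distance from the annotated start site (x axis, kb, downstream positive), 1 panel per target, for genes with H3K4me3 only (red), H3K27ac only (yellow), both marks (blue) and neither mark (grey). H3K4me3 is a broad plateau in genes with both marks and a lower summit of about 60.7% in genes with H3K4me3 only. In genes with both marks H3K27ac dips just before the start, and KDM2B dips less there and lies mainly downstream.

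The end of the record that carried the mark differed among the classes. Among genes over 2 kb with a known strand, H3K4me3 was at the start end only in 63.5% of genes with H3K4me3 only, at the far end only in 18.9% (16.6 to 21.4) and at both ends in 17.7% (n = 980). In genes with both marks these shares were 69.6%, 2.28% (2.00 to 2.60) and 28.1% (n = 9590). H3K27ac was at the far end only in 42.7% of genes with H3K27ac only (36.2 to 49.5, n = 206) and in 3.55% of genes with both marks (3.19 to 3.93). Genes with H3K27ac only often had H3K4me3 farther inside the record, in 54.9% (49.2 to 60.5), while 30.8% of genes with H3K4me3 only had H3K27ac inside the record. The nearest peak of the missing mark was a median of 7178 bp from the gene end in genes with H3K4me3 only and of 3237 bp in genes with H3K27ac only.

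The top of each single-mark class consisted of peaks that ran on into the other mark. All 15 genes with the highest H3K4me3 fold among those with H3K4me3 only, and all 15 with the highest H3K27ac fold among those with H3K27ac only, had a peak that overlapped the other mark beyond the 1 kb window. The first set was led by NOXO1, an organiser of an NADPH oxidase, with a fold of 76.4. Its H3K4me3 peak was 34789 bp wide and was shared with RPS2, NDUFB10, GFER and 3 other genes. FSD2 followed at 71.9, with a peak shared with WHAMM, then LOC124905564 at 71.2, NPR2 at 65.0, PPM1J at 64.5, DNALI1 at 62.5, ZBTB8B at 59.0, LOC124905081 and FBXW10B both at 58.8, OTOS and the collagen receptor kinase gene DDR1 both at 57.1, RUNDC3A at 56.5, VMO1 at 55.6 and REC8 at 55.5. Of these, PPM1J was the only one with a KDM2B peak, of fold 8.01.

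The leading H3K27ac folds of genes with H3K27ac only were 77.3 at CAPN12, a calpain protease, 63.6 at LOC124909439, 57.4 at KIAA1549L and 54.1 at RPL26L1. CDH13, which encodes an atypical cadherin, had a fold of 51.8, ALDH3A1 one of 46.9, TNFSF8 one of 43.6, the cytokine gene LIF one of 42.7 and CCNY one of 41.8. PSG4, MEPE, FBLN1, KRT34, GKN1 and FAM120B followed, between 30.9 and 35.1. The nearest H3K4me3 peak was 1016 bp away at LOC124909439 and 9316 bp away at CAPN12. In all, 290 genes with H3K4me3 only (20.9%, 18.8 to 23.1) and 89 with H3K27ac only (30.2%, 25.2 to 35.6) were of this kind.

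Without these genes, a split made after their values were seen, 1098 genes remained with H3K4me3 only and 206 with H3K27ac only. The median H3K4me3 fold of the 1098 was 7.51 and that of the 290 was 36.1, and the median H3K27ac fold was 2.84 in the 206 and 15.8 in the 89. The shares of the other targets moved by a few points. KDM2B with H3K4me3 only went from 22.3% to 24.6% and MYC with H3K27ac only from 16.3% to 12.1%, both outside the interval of the whole class. H3K27me3 was at 66.4% of the 1098 (63.5 to 69.1), H2AK119ub at 83.0%, MYC at 46.9% and KDM2B at 24.6%, and in the 206 genes they were at 32.0%, 46.1%, 12.1% and 0.485%. In the genes left out they were at 55.5%, 81.4%, 39.0% and 13.4% of the 290, and at 33.7%, 57.3%, 25.8% and 0% of the 89.

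The strongest H3K4me3 peaks clear of H3K27ac mostly had MYC, KDM2B and a Polycomb mark beside them. MAPT, which encodes the microtubule-binding protein tau, had an H3K4me3 fold of 48.4, H3K27me3 of 2.73, H2AK119ub of 4.28, MYC of 12.7 and KDM2B of 5.52, with the nearest H3K27ac peak 72310 bp from its ends. KIAA0319, a membrane protein gene, had H3K4me3 of 48.0, MYC of 8.73 and KDM2B of 6.01 with no Polycomb mark, and its promoter above is the richest in CpG of the 8. SPATA18, which acts in mitochondrial quality control, had H3K4me3 of 47.1 and H2AK119ub of 2.53. The divergent pair MRE11, a nuclease of DNA break repair, and C11orf97 shared an H3K4me3 peak of fold 40.4 and 3801 bp. That peak had MYC at 5.94 and KDM2B at 4.59, no Polycomb mark, and H3K27ac no nearer than 7846 bp to an end of MRE11.

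After these came BICDL1 at 40.0, PALM2AKAP2 and CYFIP2, a subunit of the actin-regulating WAVE complex, both at 39.9, the pair NRG4 and TMEM266 at 39.3, ADAP1 at 37.8, the chemokine receptor gene CXCR4 at 37.7, the somatostatin receptor gene SSTR2 at 37.5, ZMYND15 at 37.4, DUSP8 at 37.3, SOX5 at 36.4 and TMOD1 at 36.2. CXCR4 had all of H3K27me3 at 2.95, H2AK119ub at 4.06, MYC at 4.94 and KDM2B at 5.71, and the nearest H3K27ac lay 118209 bp away. Among the 20 leading genes of this kind, which also held GNAL, SNAI3 and ZBTB7C, 19 had MYC and KDM2B at an end, and ZBTB7C had neither. MYC and KDM2B were at 46.9% and 24.6% of the 1098, and at 65% and 48.3% of all genes. Of the 20, 16 had H2AK119ub and 14 had H3K27me3. Those shares were 83.0% and 66.4% of the 1098, and 46.6% and 27.1% of all genes.

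Of the 20 leading genes whose H3K27ac peak was clear of H3K4me3, 14 had no other target at an end. H3K27me3 and H2AK119ub were each at 4 of the 20. Their shares were 32.0% and 46.1% of the 206, and 27.1% and 46.6% of all genes. TM4SF18 had an H3K27ac fold of 29.1, and FGF2, a growth factor gene, had 24.1 at its far end. KCTD4 followed at 21.3, TEX48 at 17.6, the peptide receptor gene RXFP3 at 16.9, the sodium-calcium exchanger gene SLC8A1 at 14.5, PSG7 at 14.4 and the cadherin gene CDH17 at 13.1. KRT39, a hair keratin gene, had 10.6, the folate receptor gene FOLR3 10.5 and COL15A1 10.4, where H3K27me3 of fold 5.08 was also near an end. SPMIP3 and KRTAP4-6, whose promoters are printed above, had folds of 9.97 and 7.70 with no other target, and AGXT2 had 6.29 beside H3K27me3 at 2.65. Of the 20 leading genes of this kind, MYC was at an end of 1, the myoglobin gene MB, at a fold of 4.25, and KDM2B at none. MYC and KDM2B were at 12.1% and 0.485% of the 206, and at 65% and 48.3% of all genes.

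Promoters of the classes differed in CpG content. The ratio of observed to expected CpG had a median of 0.608 in genes with H3K4me3 only (quartiles 0.300 and 0.827, n = 1033), 0.276 with H3K27ac only (0.161 and 0.640, n = 221), 0.843 with both marks (0.706 and 0.955, n = 9846) and 0.301 with neither (0.150 and 0.650, n = 4001). An entry was counted as CpG-rich with a ratio of at least 0.6 and a GC content of at least 50%. That held for 48.3% of promoters with H3K4me3 only (45.3 to 51.4), 24.4% with H3K27ac only (19.2 to 30.5), 81.5% with both (80.7 to 82.3) and 25.8% with neither (24.5 to 27.2), against 63.7% of all promoters. Promoters with H3K4me3 only were spread over both low and high CpG, whereas those with H3K27ac only had nearly the CpG content of promoters with neither mark. These entries lie at the annotated start and are often not the sequence under the mark. H3K4me3 covered the start in 60.7% of genes with H3K4me3 only, and H3K27ac in 32.6% of genes with H3K27ac only. When the promoters were ranked by CpG ratio into 5 equal groups, H3K27ac was present at 70.0% of the H3K4me3 genes in the lowest, then at 82.8%, 93.0% and 94.6%, and at 96.0% in the highest.

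**Figure D4:**
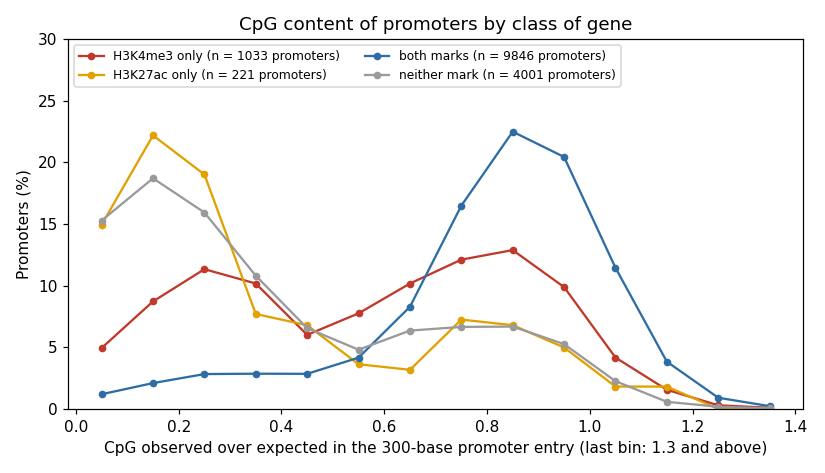
Share of promoters (y axis, percent) by the ratio of observed to expected CpG in the 300-base RefSeq entry (x axis), for genes with H3K4me3 only (red), H3K27ac only (yellow), both marks (blue) and neither mark (grey). Genes with both marks form 1 hump around their median of 0.843, and genes with H3K4me3 only spread over low and high ratios around a median of 0.608.

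Several short motifs also differed in share, and a match of letters is a description only. These shares too are of entries at the annotated start, which the mark of a gene often did not cover in the single-mark classes. The letters TATAAA, on the gene's strand 20 to 40 bases before the start, were in 4.55% of promoters with H3K4me3 only (3.44 to 6.0), 6.79% with H3K27ac only (4.16 to 10.9), 1.80% with both marks (1.55 to 2.08) and 7.92% with neither, against 3.68% of all. CCGGAA, the core letters bound by ETS factors, was found on either strand in 11.7% with H3K4me3 only, 9.05% with H3K27ac only, 30.6% with both and 7.72% with neither, against 23% of all. GGGCGG, the core of GC boxes, was in 56.8% with H3K4me3 only, 32.1% with H3K27ac only, 71.2% with both and 29.9% with neither, against 58.7% of all. The E-box CACGTG was in 7.07% with H3K4me3 only, 5.88% with H3K27ac only, 10.3% with both and 5.42% with neither, against 8.71% of all. TGAGTCA or TGACTCA, the letters of AP-1 sites, were in 4.55% with H3K4me3 only (3.44 to 6.0), 5.88% with H3K27ac only (3.47 to 9.80), 3.03% with both (2.71 to 3.38) and 4.65% with neither (4.04 to 5.35), against 3.60% of all. CCAAT was in 30.4% with H3K4me3 only, 32.1% with H3K27ac only, 36.7% with both and 36.2% with neither, against 36.1% of all.

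Gene lists were spread unevenly over the classes. Housekeeping lists were nearly all in the class with both marks, which holds 62.9% of all genes: 78 of 80 cytosolic ribosomal protein genes, 77 of 78 of the mitochondrial ribosome, 43 of 46 proteasome genes, 33 of 34 subunits of respiratory complex I, 34 of 35 aminoacyl-tRNA synthetases and all 30 cell cycle genes. The ribosomal protein genes had a median H3K4me3 fold of 47.7 and a median H3K27ac fold of 65.1, with RPS2 at 76.4 and 114.1. The exceptions were the ribosomal genes RPL26L1 and RPL10L, both relatives of a main copy, the testis and thymus proteasome genes PSMA8 and PSMB11, and PSMA6, NDUFA5, FARS2 and MRPL44. MRPL44 had H3K27ac only, of fold 2.38, and PSMA6, NDUFA5 and FARS2 had neither mark.

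Markers of mesenchymal and basal cells, the type this line is assigned to, and several lists of growth and stress genes were also mostly in the class with both marks. They included 11 of 12 mesenchymal and basal markers, with EGFR at H3K4me3 and H3K27ac folds of 61.0 and 81.1, CD44 at 55.0 and 61.5 and ZEB1 at 51.3 and 80.8. Only TWIST1 lacked both. The YAP and TEAD targets had 16 of 17, with AJUBA at 59.1 and 82.2, the AP-1 factors 11 of 12, with JUN at 53.3 and 68.5, and the ATF4-responsive genes 26 of 28, where ASNS had H3K4me3 only, of fold 13.6. Among 14 luminal and epithelial markers, ESRP1, PGR and AGR2 had H3K4me3 only, at 26.4, 13.9 and 3.90. The oestrogen receptor gene ESR1, the E-cadherin gene CDH1, GRHL2 and TFF1 had neither mark, and 7, ERBB2 and KRT8 among them, had both. Among the haematopoietic markers, CD14, CD3E and SPI1 had H3K4me3 only, at 17.6, 11.1 and 7.43. CD79A had both, and PTPRC, LYZ and MPO had neither.

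H3K4me3 without H3K27ac was more frequent in several lists than over all genes. Against 7.26% of all genes, it was found at 20 of 53 clustered protocadherins, 18 of 89 potassium channels, 8 of 39 HOX genes, 5 of 18 SOX genes, 4 of 19 WNT ligands, 7 of 43 GABA and glutamate receptors, 7 of 42 collagens, 6 of 44 chemokines, 5 of 33 serpins and 4 of 15 MHC class II genes. No clustered protocadherin had H3K27ac at an end. The highest H3K4me3 folds among them were 12.3 at PCDHA13, 12.1 at PCDHGB1 and 11.7 at PCDHB11. Of the 20, 10 had H2AK119ub and 4 had H3K27me3, against 24 and 16 of all 53. Of the 18 potassium channel genes with H3K4me3 only, 15 had H3K27me3 and 16 H2AK119ub, against 55 and 67 of all 89. Among the 18 were KCNH3 at an H3K4me3 fold of 35.9, KCNQ3 at 27.5 and KCNJ11 at 21.2. All 8 HOX genes with H3K4me3 only had H2AK119ub, as did 36 of the 39 HOX genes. Over all genes with H3K4me3 only, that share was 82.6%. None of the 8 had MYC or KDM2B, which were at 9 and 6 of the 39. The 8 were led by HOXD12 at 31.9 and HOXA9 at 31.1.

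The SOX genes with H3K4me3 only were SOX5, SOX21 at 27.1, the pluripotency factor SOX2 at 20.8, SOX18 at 6.03 and SOX11 at 2.76. The WNT ligands were WNT11 at 34.8, WNT4 at 22, WNT2 at 14.7 and WNT8B at 12.4, and WNT3 had H3K27ac only, of fold 28.8. CXCL16 at 37.4 and CCL27 at 41.5 led the chemokines, while CXCL1, CXCL2, CXCL3 and CCL20 had both marks. All 6 chemokine genes with H3K4me3 only had H3K27me3 and H2AK119ub, which were at 32 and 28 of the 44 in the list. In the MHC class II list, HLA-DMB had an H3K4me3 fold of 17.7 with no Polycomb mark, and the regulator CIITA and CD74 had both marks, at H3K27ac folds of 36.3 and 17.1.

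H3K27ac without H3K4me3 was most frequent in keratins, at 6 of 55, serpins, at 3 of 33, and keratin-associated proteins, at 6 of 94, against 1.54% of all genes. KRT34 at 33.2, KRT15 at 19.8, KRT33B at 12.4 and KRT39 at 10.6 led the keratins, and KRTAP4-6 the associated proteins. These genes lie close together on chromosome 17, and KRT15 shared its H3K27ac peak of fold 19.8 with KRT19, which had both marks. Genes of closely related copies, such as these, the histones and the protocadherins, are uncertain, since their reads can map to more than 1 copy. Several lists had mostly neither mark, against 28.3% of all genes: 379 of 391 olfactory receptors, all 21 UDP-glucuronosyltransferases, all 30 late cornified envelope and small proline-rich genes and 38 of 39 beta-defensins.

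**Figure D5:**
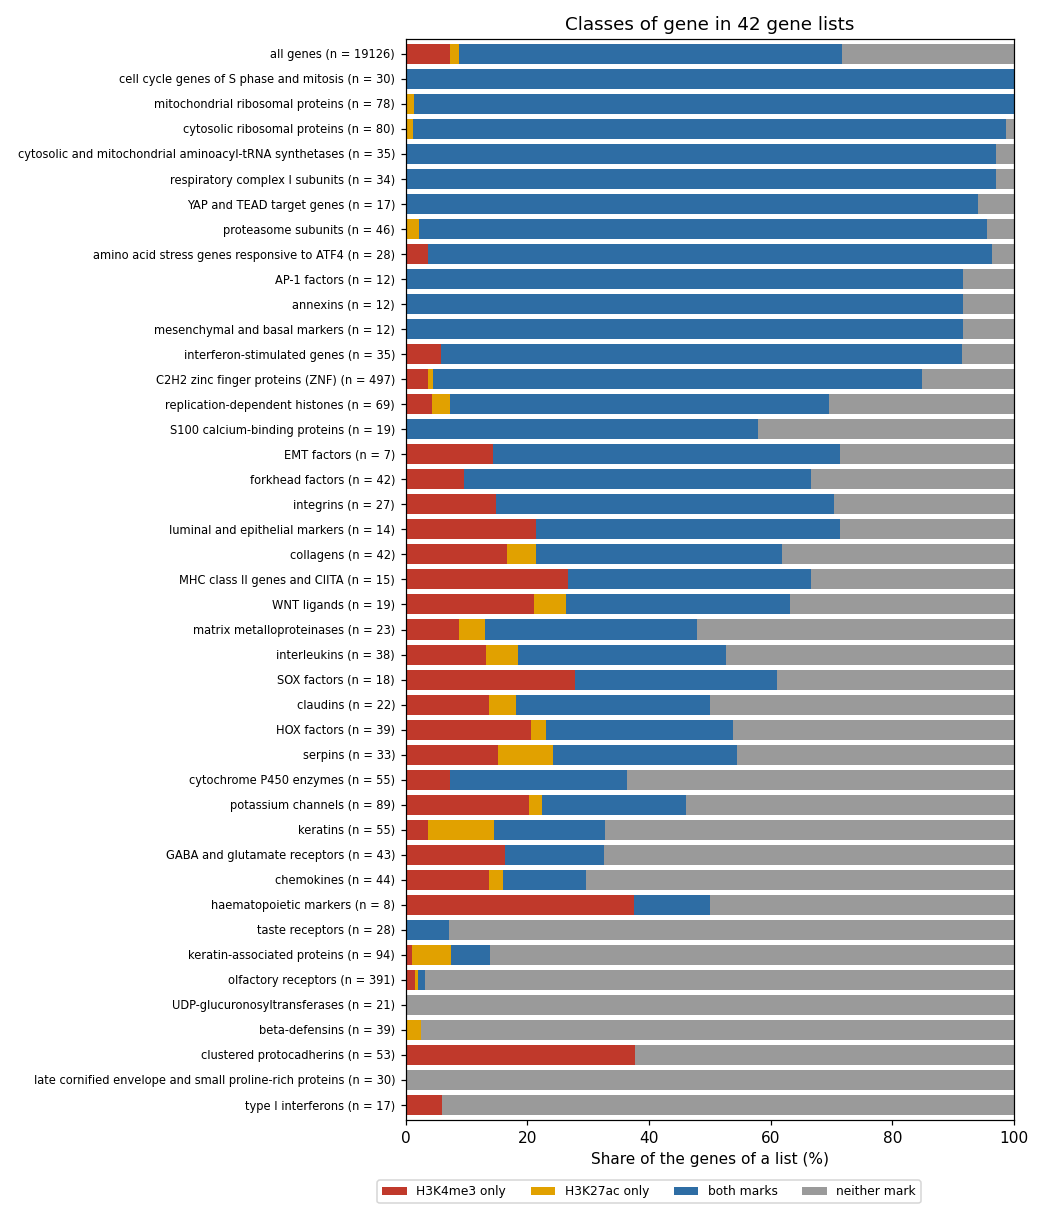
Share of the genes of 42 lists (1 bar each, x axis in percent) with H3K4me3 only (red), H3K27ac only (yellow), both marks (blue) and neither mark (grey), below a bar for all genes. Lists are ordered by the share with both marks, which is 97.5% for cytosolic ribosomal proteins and 0 for clustered protocadherins, where red makes up 37.7%.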

How the data were processed

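The chromatin was cut with an enzyme before ChIP-seq, per the labels. The tools of the authors were MACS2 2.2.7.1, SAMtools 1.6, Bowtie2 2.4.5 and Trim Galore, on build hg38, per the submitters' processing notes. The control behind a list, and any pooling of libraries, are not given in the sources used here. The deposited lists are narrow-peak files, also for the broad marks H3K27me3 and H2AK119ub, whose domains can be split into many peaks. They hold a score set by the authors' peak caller, equal to 10 times −log10 q cut to a whole number in 99.8% of H3K4me3 peaks and 99.9% of H3K27ac peaks. They also hold the deposited fold, a ratio of signal to background at the summit, and the deposited −log10 q-value, with q under 0.05 throughout. The −log10 p-value was not used. The H3K4me3 list holds 71597 peaks and the H3K27ac list 95771. The lists give no read counts, so depth is unknown and absence of a peak is absence from a list.

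Gene records came from RefSeq, GRCh38.p14, without strand. Promoter sequences, starts and strands came from the RefSeq promoter table of the same build, which matched 15101 of the 19126 genes; genes of chromosome 8 were not analysed for these. Peaks were assigned to both ends of a record with pandas 2.3.3 and numpy 2.4.6 under Python 3.11.15, the overlap routine was checked on simulated peaks, and figures were drawn with matplotlib 3.10.9. Where several peaks reached a gene, the one of highest fold gave its values. No test was run, because libraries are not resolved and genes are not replicates; shares have Wilson intervals. The 42 gene lists came from general knowledge, and members and lists were chosen with earlier results of these data known. Named genes were the 10 of highest H3K4me3 and of highest H3K27ac fold with both marks, the 15 of highest fold in each single-mark class, up to 4 per list and class, the 5 on each side of the limit, and all members of counts of 5 or fewer; some of these genes are not reported here. The 20 leading genes clear of the other mark, the printed promoters and exceptions outside that rule were picked after their values were seen. Alternatives were other windows, ends, peak thresholds, list lengths and overlap rules, 1 gene per set of overlapping windows, and, chosen after seeing the data, classes without peaks that reach the other mark and any RefSeq start site of a gene.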

Additional observations from a re-analysis of the deposited data

How the results depend on the processing

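No paired analysis was possible because there was 1 list for each target, in which the numbered libraries are not told apart, and for the same reason no library could be left out in turn. Taken over whole classes, no difference between genes with H3K4me3 only and genes with both marks changed sign under any alternative run. These runs did not hold H3K4me3 fold equal. In the lowest and the second of the 10 groups by that fold, KDM2B was slightly more frequent without H3K27ac than with it, with overlapping intervals. H3K27ac only held 295 genes, and 151 with the start end alone, 179 with the 15000 peaks of highest fold, 1101 by summits inside the window, 6006 where at least 50% of a peak had to lie inside and 145 at any RefSeq start site. H3K4me3 only held 3215 genes with the 15000 peaks, and at least 50% of the peak left 2186 genes with both marks and 9367 with neither. For H3K27me3 the difference in points was 49.9 with windows of 500 bp, 48.1 at the start end, 59.1 over whole records, 53.1 with q under 1e-5, 22.5 with the 15000 peaks, 37.1 by summits, 25.0 by 50% of the peak and 50.3 at any start site. For H2AK119ub it was 47.1 with 500 bp, 36.5 with 2500 bp, 54.8 at the start end, 32.2 over whole records, 29.0 with the 15000 peaks, 40.9 by summits, 29.1 by 50% and 53.1 at any start site. For MYC it was −54.1 with 500 bp, −46.1 over whole records, −45.2 with q under 1e-5, −10.2 with the 15000 peaks, −43.3 by summits and −33.9 by 50%. For KDM2B it was −48.9 with 500 bp, −46.9 with q under 1e-5, −19.1 with the 15000 peaks, −42.2 by summits and −20.2 by 50%. The share of genes with the marks at the same end was 99.8%, and 93.9% by overlap of the strongest peaks. CpG-rich promoters differed by −33.2 points, and by −29.3 with the 100 bases before the start. Of 192 shares of the other targets recomputed per class, 69 stayed within the interval of the reported share and 123 did not. The cause of these shifts was not tested. Thresholds were changed in the H3K4me3 and H3K27ac lists only, while rules on windows, ends and overlap were applied to the lists of all targets. Depth is unknown, so a gene without a peak cannot be told from one below detection.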

Other observations

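The classes varied among chromosomes. H3K4me3 only made up 10.8% of genes on chromosome 19 (9.26 to 12.4, n = 1451) and 3.70% on chromosome 18 (2.02 to 6.68, n = 270), with the other chromosomes between 4.22% and 8.90%. H3K27ac only was highest on chromosome 13, at 2.66% (1.41 to 4.98, n = 338), and lowest on chromosome 9, at 0.514% (0.20 to 1.31, n = 778). Genes with both marks ranged between 51.0% on chromosome 21 and 69.2% on chromosome 16.

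Of the 30 genes with the marks at opposite ends only, 22 had a known strand and a record over 2 kb. H3K4me3 was at the start end in 17 of them and H3K27ac in 5. Among genes with H3K4me3 only, promoters of genes with both Polycomb marks had a median of 18.5 CpGs in 300 bases (n = 592) and those with no Polycomb mark a median of 10 (n = 165). Among genes with both H3K4me3 and H3K27ac these medians were 25 (n = 594) and 25 (n = 6024). In genes with both Polycomb marks, H3K27ac had a median fold of 2.78 with H3K27ac only and of 8.43 beside H3K4me3, and in genes with both H3K4me3 and H3K27ac and no Polycomb mark it was 29.4.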
